A study of Mus musculus with 12 samples.

Results

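Genes whose transcripts were less abundant in hearts of 18-month-old than of 8-week-old mice, in cardiomyocytes as well as in the remaining cardiac cells, were collected from 1 expression table. Of its 38282 genes, 15171 averaged 1 FPKM or more across the 12 libraries. FPKM counts sequenced fragments per kilobase of a gene's transcript and relative to all that were mapped, so values allow for gene length and sequencing depth. A gene was included if the largest value of the aged cardiomyocyte libraries lay under the smallest of the young ones and the same held for non-cardiomyocytes. These criteria were met by 175 genes, or 1.15% of the 15171. If ages were dealt at random and the fractions were independent, 1 gene in 400, or 37.9 of the 15171, would meet them; as the fractions may share hearts, this number is a yardstick and not a test. Of the 17 core clock genes and clock outputs that were set aside by name, 12 were among them (Per1, Per2, Per3, Cry2, Nr1d1, Nr1d2, Dbp, Tef, Hlf, Ciart, Wee1 and Ddc), which left 163 genes. The genes were chosen by their FPKM values at the 2 ages in both fractions, and their age differences are therefore described here without a test.

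The mice were male and of unstated genotype, obtained at 8 weeks (young) or 18 months (aged), and received no treatment named in the labels. Their hearts were perfused with digestion enzymes on a Langendorff apparatus, and centrifugation divided the cells into cardiomyocytes and a mixed fraction of all other cells, called non-cardiomyocytes. Each age and fraction is represented by 3 libraries of polyadenylated RNA, numbered here 1 to 3 in the order of the table's columns. Neither the hearts behind each library nor the time of day at which they were taken is given in the sources used here, so the spread between libraries may be partly technical, and both fractions may come from the same hearts.

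The adult heart is built of few but very large cardiomyocytes among endothelial cells, fibroblasts, mural cells and immune cells. Enzymatic dispersal of a tissue is known to induce immediate early genes, heat shock chaperones and cytokines within the time of the digestion. Glucocorticoids and the circadian clock drive daily rhythms in many cardiac transcripts, and the E-box CACGTG is the element to which the clock factors CLOCK and ARNTL bind.

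The fractions were first checked against marker genes. Summed FPKM of 10 cardiomyocyte markers was 66934, 79974 and 66180 in the young and 70197, 109380 and 25062 in the aged cardiomyocyte libraries. In non-cardiomyocytes it lay between 4577 and 8212, so that cardiomyocyte RNA was depleted but present. Myl2 was the most abundant of these markers, whereas Myh6 and Atp2a2 were listed at 0 in every cardiomyocyte library, although cardiomyocytes depend on both. Aged cardiomyocyte library 3 stood apart: it had the lowest cardiomyocyte sum of its fraction and the highest sums of endothelial (2014 FPKM, led by Egfl7), fibroblast (1569 FPKM, led by Dcn) and macrophage markers (547 FPKM, led by C1qa). Aged cardiomyocyte library 2 had the lowest sums of these other cells (449, 342 and 102 FPKM). Young cardiomyocyte library 1 carried 432 FPKM of adipocyte markers, led by Cfd, against at most 1.84 FPKM in the other cardiomyocyte libraries. Young non-cardiomyocyte library 1 had the highest adipocyte (24.5 FPKM), neutrophil (90.9 FPKM) and mesothelial marker sums (86.2 FPKM) of its fraction. None of the 163 genes was a marker in any of the 11 cell type lists. As the 163 genes are 1.07% of all genes averaging 1 FPKM or more, 0 in these short lists is close to that share. In such bulk samples fewer cells of a type and less RNA per cell cannot be told apart.

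**Figure D1:**
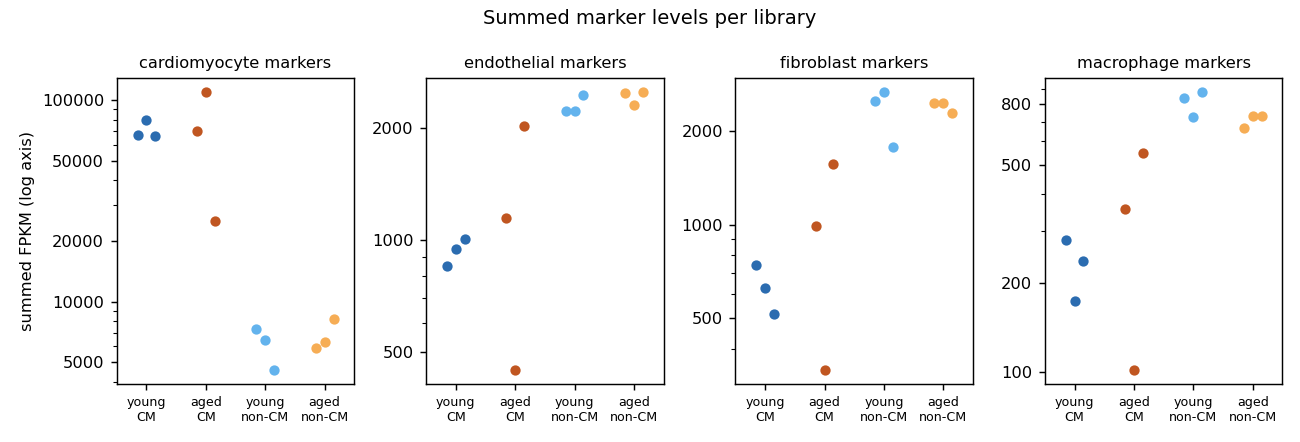
Summed FPKM (log axis) of 4 marker lists in each of the 12 libraries; each point is 1 library. Aged cardiomyocyte library 3 has 25062 FPKM of cardiomyocyte markers, under the other 5 cardiomyocyte libraries (66180 to 109380), and the highest endothelial, fibroblast and macrophage sums of that fraction.

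Most of the 163 genes were lower by a modest amount. The age difference of a gene is given as the mean log2(FPKM + 0.1) of the aged minus that of the young libraries, with its standard error (SE, n = 3 against 3), and understates the change of genes with low values. Its median over the 163 genes was -0.37 in cardiomyocytes and -0.36 in non-cardiomyocytes, against -0.05 and -0.01 over all 15171 genes. The difference exceeded 1 in size for 19 genes in cardiomyocytes, 16 in non-cardiomyocytes and 12 in both, whereas 97 genes differed by under 0.5 in each. It was larger in cardiomyocytes for 81 genes and larger in non-cardiomyocytes for 82. The space between the groups was narrow: the smallest young value was at the median 1.06 times the largest aged value in cardiomyocytes and 1.09 times in non-cardiomyocytes. It was over 1.5 times for 5 genes in cardiomyocytes and 8 in non-cardiomyocytes. Just inside stood Rif1 (1.0003) and Trim33 (1.0003), just outside Nt5dc2 (0.9999) and Shoc2 (0.9994). At the threshold of 1 FPKM, Dbh (1.17 FPKM) and Gm17566 (1.21 FPKM) and the processed pseudogene Gm6088 (1.31 FPKM) were the nearest inside and Gm15690 (0.935 FPKM), Dync2h1 (0.931 FPKM) and Cacna1d (0.780 FPKM) the nearest outside.

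Taken alone, cardiomyocytes had 473 genes (3.12%) and non-cardiomyocytes 1617 genes (10.7%) with every aged library under every young library. The genes lower in both, clock genes included, were 37% of the first and 10.8% of the second. In the reverse direction 351 (2.31%) and 1228 genes (8.09%) were higher in every aged library, and 94 genes (0.62%) in both fractions. Membership depended on the scaling: with all columns brought to the same sum of FPKM, which ranged from 497580 to 1083100, 58 genes met the criteria and 28 of these were among the 163. With median ratio scaling 125 genes met them, 117 of these among the 163, and with equal quantiles within each fraction 111, of which 82. Scaling to the same sum moved the median age difference of all genes from -0.05 to 0.07 in cardiomyocytes and from -0.01 to 0.05 in non-cardiomyocytes. That of the 163 genes became -0.24 in cardiomyocytes and -0.30 in non-cardiomyocytes, and 160 of the 163 genes were still lower on average in cardiomyocytes. Leaving out a library loosens the criteria, and the number of genes was then 298 without young cardiomyocyte library 1, 248 without young library 2, 441 without aged library 2 and 387 without aged library 3.

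**Figure D2:**
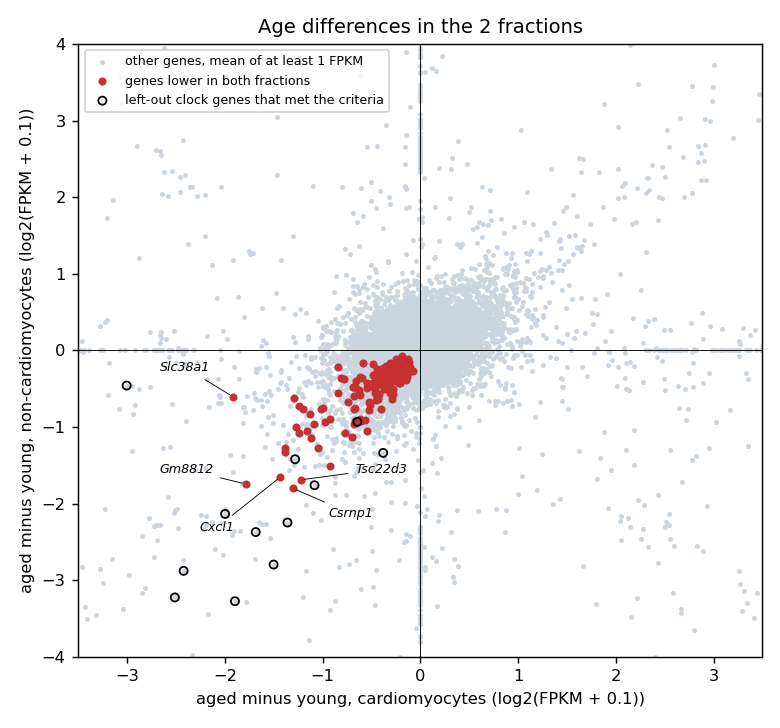
Age difference in cardiomyocytes (x axis) and non-cardiomyocytes (y axis), log2(FPKM + 0.1), aged minus young; grey points are the other genes that averaged 1 FPKM or more, red points the 163 genes and open circles the 12 clock genes set aside. The red points lie in the lower left of the plot because the criteria placed them there, most of them close to the origin (medians -0.37 and -0.36); U6 and other genes beyond the axes are not drawn.

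A group of 12 inducible regulators was assembled after the values had been seen (Cxcl1, Socs3, Csrnp1, Cebpb, Apold1, Tsc22d3, Trib1, Tiparp, Tob2, Gadd45a, Bcl6 and Dusp16) and had median age differences of -1.02 in cardiomyocytes and -1.05 in non-cardiomyocytes. Not all of their differences were large, as those of Dusp16 were -0.49 and -0.42. Cxcl1 (chr5:90891241-90893115, GRCm38), a chemokine that attracts neutrophils, measured 47.3, 30.9 and 21.5 FPKM in young against 13.2, 6.19 and 19.2 FPKM in aged cardiomyocytes. In non-cardiomyocytes it measured 170, 128 and 83.8 FPKM in young against 31.3, 58.4 and 32.0 FPKM in aged libraries. The groups were close in cardiomyocytes, where young library 3 and aged library 3 differed little, and well apart in non-cardiomyocytes. The age differences were -1.43 (SE 0.58) and -1.65 (SE 0.42).

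Socs3 (chr11:117966079-117970047), the feedback inhibitor of cytokine signalling through JAK and STAT proteins, stood at 76.9, 26.7 and 20.9 FPKM in young against 15, 7.63 and 20.7 FPKM in aged cardiomyocytes. Its non-cardiomyocyte values were 129, 65.9 and 32.9 FPKM in young against 23.0, 30.9 and 25.1 FPKM in aged libraries. In both fractions young library 1 was far above the rest and young library 3 barely cleared the aged values, so the difference in cardiomyocytes was -1.38 with an SE of 0.71. Csrnp1, a nuclear protein with transcriptional activity, showed the same order of the young libraries, with 29.3, 20.2 and 12.2 FPKM against 11.2, 6.92 and 5.97 FPKM in aged cardiomyocytes. Its non-cardiomyocyte values were 53.0, 31.2 and 16.0 FPKM in young against 10.9, 9.32 and 6.02 FPKM in aged libraries. Young library 1 was again highest and young library 3 lowest of the young libraries in each fraction. Young library 1 also had the highest adipocyte marker sum of each fraction, and the part of its cell content in these values was not tested.

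Cebpb (chr2:167688915-167690418), a leucine zipper transcription factor of inflammation and metabolism, measured 67.2, 52.5 and 34.8 FPKM in young against 28.8, 23.4 and 17.7 FPKM in aged cardiomyocytes. The non-cardiomyocyte libraries gave 90.2, 40.2 and 39.1 FPKM at 8 weeks and 29.7, 26.6 and 16.5 FPKM at 18 months. No aged library reached a young one, and young library 1 was highest in each fraction. Apold1, an early response gene of endothelial cells, was more abundant in non-cardiomyocytes (163, 99.0 and 73.7 FPKM young, 60.2, 67.0 and 20.7 FPKM aged) than in cardiomyocytes (53.7, 39.2 and 27.6 FPKM young, 26.5, 12.6 and 19.5 FPKM aged). Aged and young values nearly met in both fractions.

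Tsc22d3 (chrX:140539528-140600659), which encodes the glucocorticoid-induced leucine zipper protein GILZ, was the most abundant of this group. Its values were 130, 196 and 100 FPKM in young against 66.3, 61.9 and 48.9 FPKM in aged cardiomyocytes, a difference of -1.22 (SE 0.31). In non-cardiomyocytes they were 278, 477 and 180 FPKM in young against 97.3, 125 and 58.1 FPKM in aged libraries, a difference of -1.69 (SE 0.52). Unlike Socs3, its highest young value lay in library 2 of each fraction. Bcl6, a transcriptional repressor, was likewise highest in young library 2, with 10.6, 13.1 and 12.6 FPKM in young against 7.04, 6.41 and 9.49 FPKM in aged cardiomyocytes. Its non-cardiomyocyte libraries measured 10.8, 19 and 12.0 FPKM at 8 weeks and 5.13, 6.79 and 10.3 FPKM at 18 months, with aged library 3 just under the lowest young library.

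**Figure D3:**
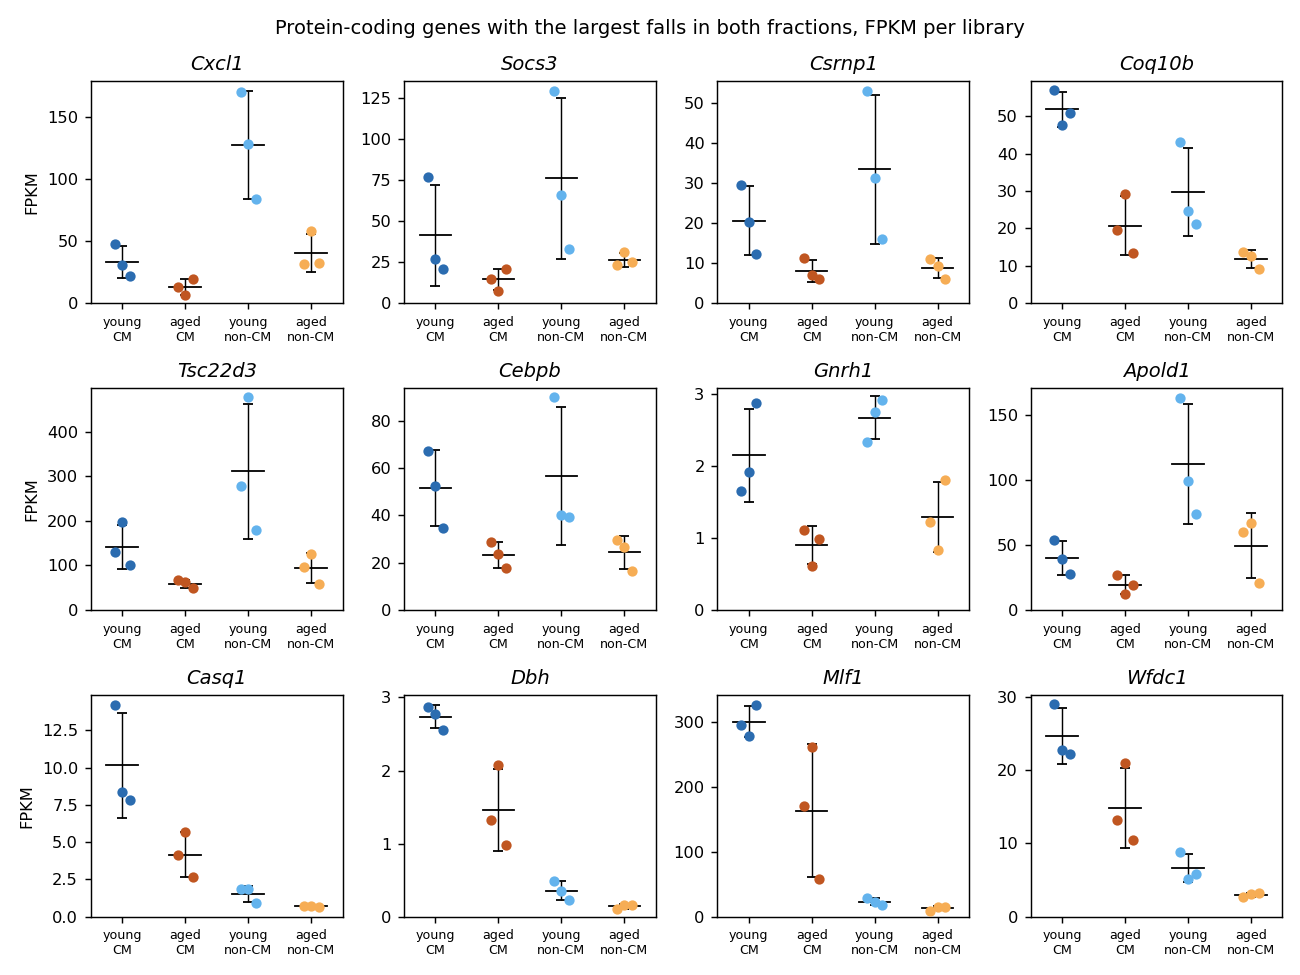
FPKM per library of the 12 protein-coding genes with the largest age differences in both fractions; points are libraries 1 to 3 from left to right in each group, horizontal lines the mean and error bars the SD (n = 3). Cxcl1, Socs3 and Csrnp1 spread widely among young libraries (Socs3 from 20.9 to 76.9 FPKM in cardiomyocytes), whereas Coq10b and Dbh lie close together in young cardiomyocytes (Coq10b 47.7 to 57.1 FPKM).

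Lists of immediate early genes, heat shock chaperones and glucocorticoid targets were compared with these regulators. All 16 immediate early genes listed were lower on average in aged libraries of both fractions, with medians of -0.69 in cardiomyocytes and -1.20 in non-cardiomyocytes. All 16 were so too with the columns at the same sum (-0.56 and -1.14) and with median ratio scaling (-0.67 and -1.19). Every aged library was under every young library for 1 of them in cardiomyocytes (Socs3) and for 10 in non-cardiomyocytes, against 3.12% and 10.7% of all genes. Their summed level was 3926, 3406 and 1691 FPKM in young against 2415, 1629 and 1404 FPKM in aged cardiomyocytes. In non-cardiomyocytes the sum was 7521, 6056 and 3443 FPKM in young against 2400, 3201 and 1585 FPKM in aged libraries. The ages overlapped in cardiomyocytes, where aged library 1 exceeded young library 3, and not in non-cardiomyocytes. The order of the young libraries was that of Cxcl1 and Csrnp1. Fos, the prototype immediate early gene, was not among the 163 genes: aged cardiomyocyte libraries 1 and 2 (401 and 403 FPKM) exceeded young library 3 (298 FPKM).

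All 12 heat shock chaperones were lower on average, with medians of -0.48 in cardiomyocytes and -1.16 in non-cardiomyocytes, and 0 and 5 of them, respectively, were without overlap between the ages (3.12% and 10.7% of all genes). Their summed level was 3538, 2357 and 1950 FPKM in young against 2148, 2698 and 910 FPKM in aged cardiomyocytes. Young library 1 was highest and aged library 3 lowest, and the others overlapped, with aged library 2 above young libraries 2 and 3. In non-cardiomyocytes the sum was 4311, 2082 and 1415 FPKM in young against 1294, 1305 and 775 FPKM in aged libraries. Hspa1a, the inducible chaperone of this family, measured 155, 62.4 and 41.6 FPKM in young against 46.0, 37.1 and 4.21 FPKM in aged cardiomyocytes, so that aged library 1 overlapped young library 3. Of 14 glucocorticoid targets 13 were lower on average in each fraction, with medians of -0.70 and -0.71. Without overlap were 3 in cardiomyocytes (Tsc22d3, Klf9 and Mt2) and 4 in non-cardiomyocytes (Tsc22d3, Sgk1, Nfkbia and Dusp1), against the same 3.12% and 10.7%. The part of the response to tissue digestion, of glucocorticoids and of the time of day in the values of the 163 genes was not tested.

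**Figure D4:**
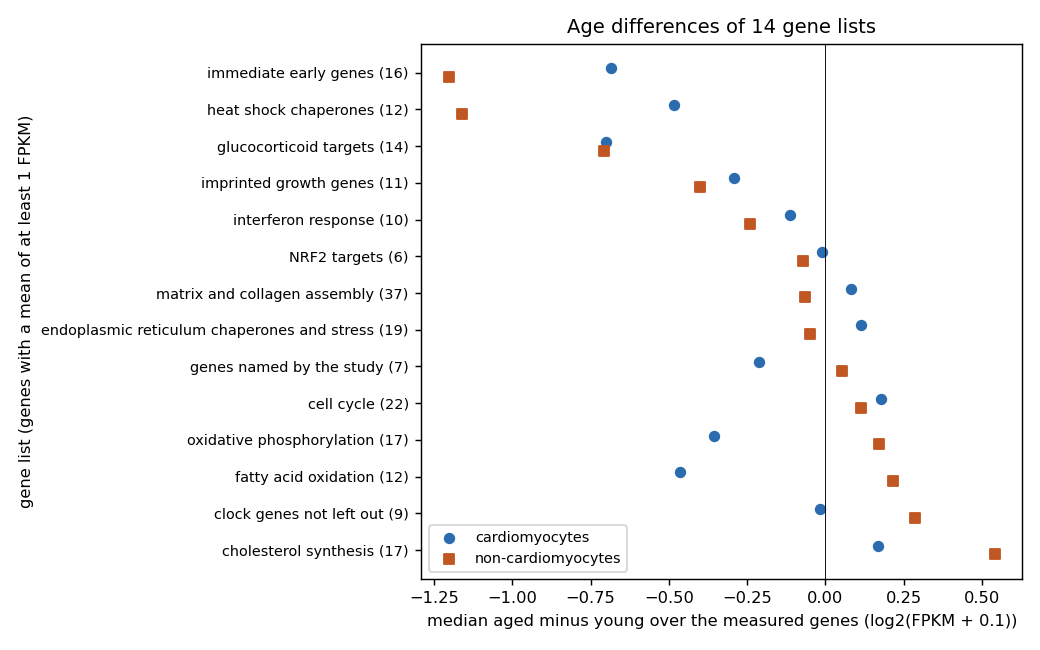
Median age difference, log2(FPKM + 0.1), of 14 gene lists in cardiomyocytes (circles) and non-cardiomyocytes (squares); the number of genes averaging 1 FPKM or more stands beside each list. Immediate early genes (-0.69 and -1.20), heat shock chaperones (-0.48 and -1.16) and glucocorticoid targets (-0.70 and -0.71) have the lowest medians in non-cardiomyocytes.

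The 14 pathway lists held 209 genes averaging 1 FPKM or more, of which 4 (1.91%) were among the 163, against 1.07% of all such genes. Besides Socs3 and Tsc22d3 these were Peg3 and Plod2, while 0 members came from the cell cycle, endoplasmic reticulum stress, oxidative phosphorylation, fatty acid oxidation, cholesterol synthesis, interferon and NRF2 lists and from 7 genes named by the study. Peg3 (chr7:6703892-6730431), a paternally expressed zinc finger gene, measured 6.94, 4.77 and 4.65 FPKM in young against 3.11, 1.37 and 4.09 FPKM in aged cardiomyocytes. Its non-cardiomyocyte values were 12.2, 9.69 and 9.42 FPKM in young against 5.68, 6.58 and 5.99 FPKM in aged libraries. The ages were well separated in non-cardiomyocytes and close in cardiomyocytes. Of the 11 imprinted growth genes measured, Peg3 was the 1 without overlap in cardiomyocytes, and 6 were so in non-cardiomyocytes, against 3.12% and 10.7% of all genes. Plod2, a lysyl hydroxylase that prepares collagen for crosslinking, was lower with differences of -0.52 (SE 0.21) and -0.72 (SE 0.26), and was the 1 member among 37 genes of matrix and collagen assembly.

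Coq10b, which encodes a mitochondrial protein that binds coenzyme Q, varied little between young cardiomyocyte libraries. It measured 57.1, 47.7 and 50.9 FPKM in young against 19.5, 29.2 and 13.5 FPKM in aged cardiomyocytes, a difference of -1.39 (SE 0.33). Non-cardiomyocytes had 43.1, 24.7 and 21.3 FPKM at 8 weeks and 13.8, 12.5 and 9.13 FPKM at 18 months, a difference of -1.27 (SE 0.36). Young and aged values were clearly apart in both fractions. Gnrh1, the precursor of gonadotropin-releasing hormone, was low throughout, with 1.65, 1.91 and 2.87 FPKM in young against 1.10, 0.609 and 0.985 FPKM in aged cardiomyocytes, and its differences were -1.16 (SE 0.33) and -1.05 (SE 0.31). A processed pseudogene on chromosome 8 (AC158295.1) ranked close to it, with differences of -1.24 and -1.08, and another, Gm8129, had -0.98 and -0.93; reads of near-identical copies cannot be assigned with certainty, and its values and those of the other 6 processed pseudogenes are uncertain.

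Outside the 163 genes, the profiles over the 12 libraries most like their mean profile were those of Per1 (Pearson r = 0.967), Per2 (0.942), Per3 (0.904), Hlf (0.903) and Gsk3b (0.880), where the age groups themselves make up much of each correlation. Promoter sequences (250 bases before to 50 bases after the start site, RefSeq, GRCm38.p6) were at hand for 116 of the 163 genes. As this is 71.2% of them and under 80%, shares of motifs over the 163 genes were not compared with other genes. The promoters of Coq10b and Bcl6 are shown because each holds the E-box, which 10.2% of all 10174 promoters hold on either strand. They were picked for this motif and do not stand for the 163 genes. The promoters of Cxcl1, Socs3, Csrnp1, Cebpb, Apold1 and Tsc22d3 hold no E-box. The promoter of Coq10b also holds a D-box (TTANGTAA, either strand), the element of the clock output factors DBP, TEF and HLF, found in 1.31% of promoters. Mlf1, described below for its high level in cardiomyocytes, has a cAMP response element (TGACGTCA), as do 3.11% of promoters. Capitals mark only the motifs named here for each gene. Others that were searched, such as the CCAAT box (CCAAT, either strand) in Coq10b and Mlf1, are in lower case. The sequences read 5′ to 3′ on the strand of the gene. They lie at chr1:55052520-55052819 (plus strand), chr16:23988803-23989102 (minus strand) and chr3:67373847-67374146 (plus strand).
Coq10b: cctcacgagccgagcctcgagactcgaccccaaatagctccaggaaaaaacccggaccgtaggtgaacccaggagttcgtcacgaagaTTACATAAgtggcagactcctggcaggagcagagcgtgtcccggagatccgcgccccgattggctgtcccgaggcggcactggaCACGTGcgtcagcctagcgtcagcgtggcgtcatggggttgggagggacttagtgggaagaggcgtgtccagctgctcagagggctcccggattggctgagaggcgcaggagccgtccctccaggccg
Bcl6: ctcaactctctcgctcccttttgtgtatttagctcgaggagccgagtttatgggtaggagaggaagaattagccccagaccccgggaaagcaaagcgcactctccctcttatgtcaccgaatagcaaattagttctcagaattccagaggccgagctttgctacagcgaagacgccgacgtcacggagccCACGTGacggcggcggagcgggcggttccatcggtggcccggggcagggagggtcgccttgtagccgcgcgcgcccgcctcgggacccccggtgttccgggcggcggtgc
Mlf1: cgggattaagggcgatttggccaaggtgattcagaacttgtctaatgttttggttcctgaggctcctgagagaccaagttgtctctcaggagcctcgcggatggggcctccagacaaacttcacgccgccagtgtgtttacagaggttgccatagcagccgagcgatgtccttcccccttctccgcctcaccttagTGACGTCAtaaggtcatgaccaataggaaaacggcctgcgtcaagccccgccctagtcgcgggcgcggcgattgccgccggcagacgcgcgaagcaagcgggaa
The E-box begins 78 bases before the start site in Coq10b and 60 bases before it in Bcl6, the D-box of Coq10b begins 162 bases before it and the cAMP response element of Mlf1 54 bases before it. A match describes the letters and is not evidence of binding.

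The difference between the fractions was compared with limma (log2(FPKM + 0.1), 12 libraries as 4 group means, Benjamini-Hochberg adjusted p under 0.05 over 20038 genes). The criteria were not independent of this difference. Aged cardiomyocyte library 2 had the highest cardiomyocyte marker sum (109380 FPKM) and library 3 the highest endothelial sum (2014 FPKM) of that fraction. Genes particular to either fraction could therefore overlap between the ages more readily and fail the criteria. This was not tested, and the shares of the 163 genes against all genes are a description and not a test. The criteria also used the mean of 1 FPKM over all libraries, which a gene low in 1 fraction can reach through the other. This was so for 3 of the 163 genes, Dbh, Gm17566 and Adora1, which averaged under 1 FPKM in non-cardiomyocytes, and their differences are given as a description. Of the other 160 genes, 16 (10%) were higher in cardiomyocytes and 71 (44.4%) lower over both ages, against 32.5% and 35.3% of the 13892 genes averaging 1 FPKM or more in each fraction. With the 3 genes, 90 of 163 (55.2%) passed, against 58.2% of the 20038 genes and 66.9% of the 15171 averaging 1 FPKM or more (32.6% higher and 34.3% lower). Without them 87 of 160 (54.4%) passed, against 67.8% of the 13892. At 8 weeks alone 61 genes (37.4%) passed, against 44.8% of the 20038, and at 18 months 46 genes (28.2%), against 32.6%. The counts by age and those on other scales below include the 3 genes. Their background is genes averaging 0.1 FPKM or more, a lower filter than that of the 163 genes. The fit shares 1 estimate of the spread among all 12 libraries, and in a limma fit to the 6 aged libraries alone 0 of the 163 genes and 17 of 19768 genes passed, with 46 and 7082 at an unadjusted p under 0.05. The median difference, cardiomyocytes minus non-cardiomyocytes, was -0.21 over the 163 genes and -0.14 over the 20038. Scaling every library to the same sum moved the median of all genes to -0.77 and that of the 163 genes to -0.92, with 7 of the 163 genes higher and 140 lower over both ages, where the deposited scale gave 19 and 71. On that scale 90.2% of the 163 genes passed, against 69.7% of 20186 genes (15.1% higher and 54.6% lower), so that whether the 163 genes passed more or less often than all genes depended on the scaling; with median ratio scaling the shares were 48.5% and 57.5%. The count at 8 weeks was 35 without young cardiomyocyte library 1 and 36 without young non-cardiomyocyte library 2. At 18 months it was 14, 16 and 24 without aged non-cardiomyocyte libraries 1, 2 and 3, and 19 and 29 without aged cardiomyocyte libraries 1 and 2.

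Several genes were far more abundant in cardiomyocytes. Mlf1, which encodes myeloid leukaemia factor 1, measured 296, 278 and 326 FPKM in young against 170, 261 and 57.8 FPKM in aged cardiomyocytes. Non-cardiomyocytes had 29.1, 22.2 and 18.7 FPKM at 8 weeks and 9.25, 14.8 and 15.4 FPKM at 18 months. It was higher in cardiomyocytes by 3.56 (SE 0.32; limma, adjusted p = 4.35e-05). Among aged cardiomyocytes the lowest value came from library 3, the library with few cardiomyocyte markers.

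Dbh, the enzyme that converts dopamine to noradrenaline, entered through its cardiomyocyte level, and it was 2.66 (SE 0.22) higher there than in non-cardiomyocytes. Its levels were low throughout, with 2.87, 2.78 and 2.56 FPKM in young against 1.32, 2.07 and 0.988 FPKM in aged cardiomyocytes, and at most 0.489 FPKM in non-cardiomyocytes. Casq1, the calsequestrin best known from skeletal muscle, was higher by 2.50 (SE 0.24; limma, adjusted p = 4.87e-05). It measured 14.2, 8.37 and 7.85 FPKM in young against 4.12, 5.68 and 2.67 FPKM in aged cardiomyocytes. For Dbh as for Casq1, the young libraries exceeded every aged library and aged library 3 was lowest. Gm17566, a transcript antisense to Prox1 (current name Prox1os), entered likewise and was 2.65 (SE 0.27) higher in cardiomyocytes, although its reads cannot be told from those of the opposite strand unless strand was counted.

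Adora1, the adenosine A1 receptor that slows the heart, also entered through its cardiomyocyte level, and was 2.27 (SE 0.22) higher in that fraction. Young cardiomyocytes had 5.36, 6.39 and 5.47 FPKM and aged cardiomyocytes 2.58, 3.65 and 1.39 FPKM. Wfdc1, a secreted protein with a protease inhibitor domain, and Rhobtb1 were higher by 2.06 and 1.69. Aged cardiomyocyte library 3 had the lowest aged cardiomyocyte value for 90 of the 163 genes: all 19 that were higher in cardiomyocytes, 21 of the 71 that were lower and 50 of the 73 that passed in neither direction. The median age difference of the 19 genes in cardiomyocytes was -0.78 with that library and -0.50 without it. In non-cardiomyocytes, where the cardiomyocyte marker sums of young (7339, 6468 and 4577 FPKM) and aged libraries (5867, 6322 and 8212 FPKM) overlapped, it was -0.62. The part of cardiomyocyte content in these differences was not tested.

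**Figure D5:**
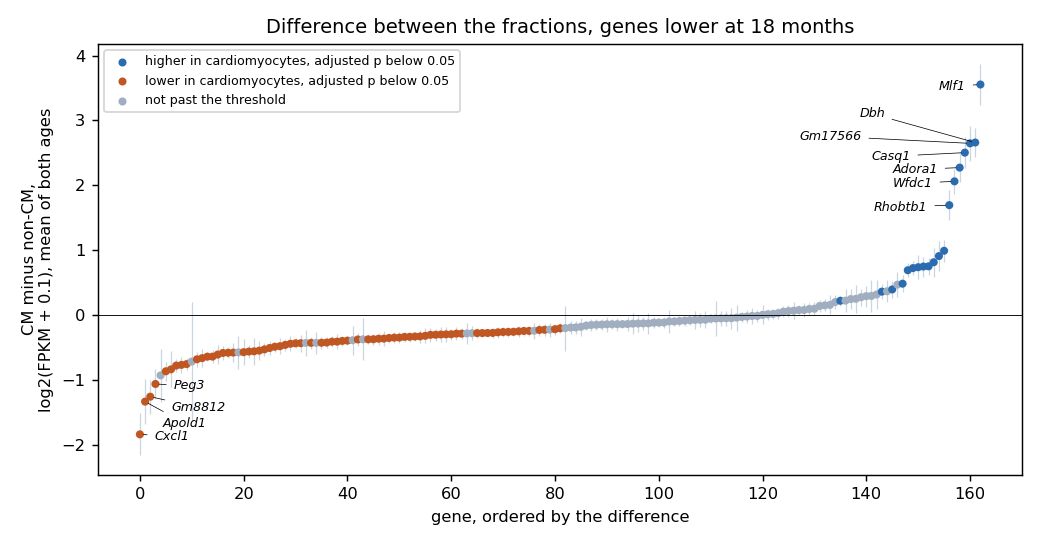
Difference between the fractions (cardiomyocytes minus non-cardiomyocytes, log2(FPKM + 0.1), mean of both ages) of the 163 genes in ascending order; bars are SE and colours mark genes past an adjusted p of 0.05, which for Dbh, Gm17566 and Adora1 is a description. From Rhobtb1 (1.69) to Mlf1 (3.56), 7 genes stand apart at the upper end, and Cxcl1 (-1.84) is the lowest.

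At the other end, Cxcl1 was lower in cardiomyocytes, with a difference of -1.84 (SE 0.32; limma, adjusted p = 0.00107). Apold1 followed with -1.34 (SE 0.34; limma, adjusted p = 0.00732) and Peg3 with -1.07 (SE 0.24; limma, adjusted p = 0.00366). The processed pseudogene Gm8812 had a difference of -1.26 and ranked next to U6 by the smaller of its age differences (-1.79 and -1.74), with 29.7, 35.2 and 18.7 FPKM in young against 8.83, 5.94 and 8.80 FPKM in aged cardiomyocytes. Socs3, at -0.93, missed the threshold (limma, adjusted p = 0.0754). Growth factor signalling was represented by 6 genes, again grouped after the values had been seen, of which 5 were lower in cardiomyocytes, against 43.6% of the 163 genes, 34.3% of the 15171 and 30.2% of the 20038. Among them were Igf1r, the receptor of insulin-like growth factor 1 (-0.78), and the co-receptor Tgfbr3 (-0.68).

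Further genes were grouped by role after their values had been seen, and these groups are a description with no test. The 15 genes of chromatin and DNA methylation included the DNA methyltransferase Dnmt3a, the 5-methylcytosine oxidase Tet2 and the methyl-CpG binding protein Mbd1. The Polycomb subunit Suz12 and the histone demethylases Kdm5a and Kdm6a also belonged to this group. Its median age differences were -0.29 in cardiomyocytes and -0.30 in non-cardiomyocytes. Of the 15 genes, 11 were lower in cardiomyocytes than in non-cardiomyocytes, where 43.6% of the 163 genes and 30.2% of the 20038 were lower. Kdm5a and Kdm6a were among the 11, whereas Dnmt3a, Tet2, Mbd1 and Suz12 were not. Dnmt3a measured 15.9, 14.1 and 18.7 FPKM in young against 10.7, 11.5 and 8.17 FPKM in aged cardiomyocytes. In non-cardiomyocytes it measured 14.2, 11.7 and 13.1 FPKM against 8.15, 7.11 and 10.7 FPKM. Mbd1 measured 17.0, 24.4 and 20.4 FPKM in young against 12.6, 13.6 and 13.7 FPKM in aged cardiomyocytes. The ages did not overlap for either gene and came closest in non-cardiomyocytes for Dnmt3a.

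Among 13 genes of RNA processing and decay, such as the splicing factor Sf3b1, the roquin genes Rc3h1 and Rc3h2 and the m6A reader Ythdf1, the medians were -0.24 and -0.34. Among 8 genes of the cell cycle and replication they were -0.44 and -0.47. Cdk6, the kinase partner of D-type cyclins, had the lowest cardiomyocyte difference of these (-0.81, SE 0.39), with 2.95, 3.15 and 4.35 FPKM in young against 2.59, 1.14 and 2.34 FPKM in aged libraries. Cyclin D2 (Ccnd2) measured 32.1, 34.4 and 32.7 FPKM in young against 30.5, 28.4 and 24.3 FPKM in aged cardiomyocytes, a narrow separation. None of the 22 proliferation genes of the cell cycle list was a member (1.07% of all genes) or separated the ages in either fraction. Of all genes, 3.12% were lower and 2.31% higher without overlap in cardiomyocytes, and 10.7% and 8.09% in non-cardiomyocytes. Among 22 genes, 0 members and 0 separated in cardiomyocytes are close to these shares.

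The most abundant of the 163 genes was Itgb1, the beta 1 integrin that anchors cells to the matrix, with 278, 295 and 308 FPKM in young against 249, 249 and 241 FPKM in aged cardiomyocytes. Its non-cardiomyocyte values were 263, 282 and 277 FPKM in young against 257, 246 and 236 FPKM in aged libraries. The libraries of a group lay close together, and the differences were small (-0.25, SE 0.04, and -0.15, SE 0.05). Nptn, a neuroplastin of the immunoglobulin family, came next with differences of -0.22 and -0.43. Strn4, a scaffold protein of the striatin family, differed by -0.20 and -0.30, and Wac, a nuclear adaptor protein, by -0.17 and -0.35. Mat2a, which makes the methyl donor S-adenosylmethionine, differed by -0.40 and -0.77, and the tetraspanin Tspan4 by -0.70 (SE 0.26) and -1.13 (SE 0.15). Slc38a1, a glutamine transporter, had the largest cardiomyocyte difference among coding genes (-1.92), with 6.16, 4.32 and 4.53 FPKM in young against 1.34, 0.820 and 1.68 FPKM in aged libraries, while the non-cardiomyocyte groups nearly touched (-0.60).

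Of the 163 genes, 150 (92%) are protein-coding in GENCODE M21, against 81.9% of all genes averaging 1 FPKM or more. Their level was ordinary, with a median of 11.9 FPKM against 12.1 FPKM. The coding members were long, with a median summed exon length of 6701 bases and a gene span of 36176 bases, against 4490 and 24313 bases for all coding genes. The 79 coding genes higher in both fractions had 3188 and 22696 bases. The 1285 coding genes lower in non-cardiomyocytes alone had 6243 and 41235 bases and the 235 lower in cardiomyocytes alone 4877 and 28607 bases. Their relation to RNA quality or library preparation was not tested. Among the 13 other genes was the U6 small nuclear RNA gene Gm25920, which has a length of 99 bases. It was listed at 24.1, 0.484 and 32.7 FPKM in young and at 0 in all aged cardiomyocytes, and at 6.63, 37.7 and 36.2 FPKM in young and at 0 in all aged non-cardiomyocytes. U6 has many near-identical copies and no poly(A) tail, and its values, like those of a 7SK copy (-0.93 and -1.51), are uncertain.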

How the data were processed

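RNA from 12 libraries of male mice (8 weeks or 18 months, 2 fractions, 3 libraries each) was analysed. The authors deposited FPKM values per Ensembl gene, estimated with Cufflinks (version 2.1 at default settings per the study's methods). The submitters' processing notes name TopHat2 2.0.9 and the build GRCm38. The annotation, the use of strand and read counts were not given in the sources used here, and the instrument is named differently in the labels and the methods. FPKM removes differences in mapped reads and transcript length but not in RNA composition. Absolute depth is unknown. Relative depth, from the smallest FPKM steps of genes above 0 in at most 9 libraries, was 0.411 to 1.

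Columns were assigned to groups by name, with 0 columns left unassigned. The column numbers 0 to 2 could not be tied to the labelled replicates. Within groups, Spearman correlations across genes were 0.922 to 0.943. To look for pairs, the group mean of each gene was subtracted from its log2(FPKM + 0.1) values, and the remainders were correlated (Pearson). These correlations are not those of the expression levels. Between same-numbered libraries of different groups they were -0.034 to 0.149, and such libraries were not treated as pairs. Between the young fractions, the remainders of same-numbered libraries correlated at 0.149, 0.084 and 0.085, and those of differently numbered ones at -0.090 to 0.006. Between the aged fractions these values were 0.054, 0.009 and 0.012, and -0.031 to 0.012. Counts with the column number as a block are given below. Identifiers were matched to GENCODE M21 for 36340 genes (94.9%); Ciart is listed as Gm129 and was matched by identifier.

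The criteria, the 163 genes, the gene lists and the tests were chosen with earlier results of these data known. The genes named were the 15 with the largest smaller age difference, the 8 most abundant, list members, those with the 4 highest and 4 lowest differences between fractions and those next to the threshold. Other genes and the role groups were chosen after their values were seen. Fractions were compared with limma 3.58.1 in R 4.3.3 (eBayes with trend) for the 20038 genes averaging 0.1 FPKM or more. On simulated data for this comparison over both ages, 149 of 200 genes changed by 2 (log2) were recovered (74.5%), with 5 false calls, and 0 calls were made with none changed. The simulated noise was independent between libraries and only 200 of 20038 genes were changed, whereas 58.2% of genes passed in the data. The simulation checks the procedure, and its rates do not carry over to the data. Other steps used Python 3.11.15, numpy 2.4.6, pandas 2.3.3 and matplotlib 3.10.9. Other pseudocounts, filters and scalings, a replicate block and the omission of each library were tried. Of the genes that met the criteria, 1 is counted among the 163 and not reported here by name.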

Additional observations from a re-analysis of the deposited data

How the results depend on the processing

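With 3 libraries a group and no counts, precision is limited by the spread between libraries. In place of 163 genes, 58 met the criteria with all columns at the same sum (28 of the 163 among them), and 188 to 441 with 1 library left out. Their median age difference in cardiomyocytes was -0.24 at the same sum and -0.39 to -0.35 with 1 library left out; in non-cardiomyocytes it was -0.41 to -0.35 with 1 left out. Of the 163 genes, those passing between the fractions at the same sum numbered 138 at 8 weeks, 133 at 18 months and 147 over both ages. These are 84.7%, 81.6% and 90.2%, against 59.5%, 52.8% and 69.7% of all genes averaging 0.1 FPKM or more. They lie above that background and not under it as on the deposited scale. With 1 library left out the ranges were 35 to 76, 14 to 62 and 74 to 91. In a limma fit to the 6 aged libraries alone, 0 of the 163 genes and 17 of 19768 genes passed, with 46 and 7082 at an unadjusted p under 0.05. With 1 library left out, 3 single differences between the fractions changed sign: U6 ranged from -1.24 to 0.21, Cebpb from -0.18 to 0.14 and Mat2a from -0.19 to 0.02; the causes were not tested. At the same sum, which moved the median of all genes from -0.14 to -0.77, those of Gm8129 and Itgb1 moved with it to -0.46 and -0.66. With the column number as a replicate block, 65, 49 and 91 genes passed between the fractions at 8 weeks, 18 months and over both ages. The age differences are plain differences of group means, and no block was fitted to them. No single named age difference changed sign with the columns at the same sum or with median ratio scaling. Other pseudocounts and the omission of a library could not change a sign, because the criteria placed every aged value under every young value. The sign of the medians with 1 library left out was fixed in the same way. The matching of Ciart by identifier and the restriction to genes averaging 1 FPKM or more in each fraction were chosen after seeing the data; by the table's own symbols there were 164 genes.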

Other observations

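The lists of oxidative phosphorylation and fatty acid oxidation held none of the 163 genes. All 17 oxidative phosphorylation genes and 11 of 12 fatty acid oxidation genes were lower on average in aged cardiomyocytes (medians -0.35 and -0.46). So were 8 of 10 cardiomyocyte markers (median -0.41). The remaining markers, Myh6 and Atp2a2, were listed at 0 in every cardiomyocyte library and entered that median as 0. The summed level of the oxidative phosphorylation genes was 42232, 46234 and 39983 FPKM in young cardiomyocytes, and 41600, 59784 and 15719 FPKM in the aged libraries 1, 2 and 3. That of the fatty acid oxidation genes was 7340, 6453 and 7912 FPKM against 6454, 10544 and 3031 FPKM. Aged library 2 was the highest and library 3, which had the lowest cardiomyocyte marker sum (25062 FPKM), the lowest of the fraction for both lists, and the part of this library and of cardiomyocyte content in the medians was not tested. In non-cardiomyocytes 2 genes of each list were lower on average (medians 0.17 and 0.22). None of the listed genes was lower in every aged library of either fraction, against 3.12% of all genes in cardiomyocytes and 10.7% in non-cardiomyocytes. Of 17 cholesterol synthesis genes, 11 were higher in every aged than in every young non-cardiomyocyte library (8.09% of all genes), and 0 in cardiomyocytes (2.31% of all genes), with positive medians in both fractions (0.54 and 0.17). Whether the fractions differ in these age differences was not tested.

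Among the 15171 genes averaging 1 FPKM or more, 6 (0.0395%) were lower in every aged cardiomyocyte library and higher in every aged non-cardiomyocyte library, and 11 (0.0725%) showed the reverse. Of the 9 clock genes that were measured and had not been set aside, Arntl, Npas2 and Clock were higher in every aged than in every young library of both fractions (0.62% of all genes). Rora and Csnk1e were lower in every aged than in every young non-cardiomyocyte library (10.7% of all genes), and the other 4 overlapped between the ages in both fractions.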
